A study of Mus musculus with 6 samples.

Results

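Nuclear pore proteins, transport receptors and the Ran system were read out by RNA-seq in blood (hematopoietic) stem cells of Mcph1-/- and of wild-type (WT) mice. The set holds the 43 of 11108 listed genes whose symbols begin with Nup and a number, follow the importin (Kpna, Kpnb, Ipo), transportin (Tnpo) or exportin (Xpo) series, or are Ran, Rangap1, Ranbp1, Cse1l or Tpr. It divides into 19 pore genes, 14 importins, 7 exportins (Cse1l included) and 3 genes of the Ran cycle. The same rule finds 49 protein-coding genes in the GENCODE annotation, and the other 6, Nup62, Nup62cl, Nup210l, Kpna6, Kpna7 and Ipo13, have no values here. Stem cells (lineage-negative, Sca-1+, c-kit+, CD34-, CD150+) were sorted from bone marrow, 200 per library, and each genotype had 3 Smart-seq2 libraries. The cells were not treated. Age, strain, sex, the deleted part of Mcph1 and whether libraries came from separate mice were not given in the sources used here. A p-value thus reflects the spread between libraries, and that spread may be technical.

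The nuclear pore complex is the channel through the nuclear envelope. Its Y complex and inner ring form the scaffold, phenylalanine-glycine repeat proteins line the channel, and filaments on the cytoplasmic side and a basket on the nuclear side receive cargo. Importins carry proteins in, exportins carry proteins and some RNAs out, and both read the small GTPase Ran, which is kept bound to GTP in the nucleus by Rcc1 and is driven to its GDP form in the cytoplasm by Rangap1 with the help of Ranbp1. In dividing cells the envelope breaks down, and Ran-GTP around chromosomes releases spindle assembly factors from importins. In blood, NUP98 and NUP214 are known as partners of leukemia fusion genes, and XPO1 is a drug target.

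Values are normalised read counts (reads divided by a size factor per library), listed for replicates 1, 2 and 3 of a genotype in that order. A log2 difference is the Mcph1-/- minus the WT mean of log2(value + 1), that is a log2 fold change on that scale, and it passes at an adjusted p under 0.05. On the listed genes, libraries held 8102605 to 8655123 reads in WT and 9464810 to 10455908 in Mcph1-/-. A count of 0 reads in a library allows an expression of up to 3 reads' worth, 2.46 to 3.25 normalised reads, for counting error only. Mcph1 itself, whose product microcephalin holds back chromosome condensation, was read at 160.5, 341 and 34.4 in WT and at 428, 37.7 and 234 in Mcph1-/-, so its total does not separate the genotypes, and directions rest on the labels. All 12 stem cell markers were listed, but Slamf1, which encodes the sorted CD150, stood at 0, 224 and 497 in WT and 65.7, 395 and 0.893 in Mcph1-/-. In a bulk library, fewer cells of a type and less RNA per cell cannot be told apart.

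No member passed the test over all genes (limma-trend, Benjamini-Hochberg adjusted p under 0.05: 0 of 43, against 0.0369% of all tested genes). At an unadjusted p under 0.05, 5 members were higher in Mcph1-/- and 0 lower, against 4.16% and 3.55% of all tested genes. Those higher were Ran, Ranbp1, Nup50, Nup93 and Nup107. edgeR's quasi-likelihood test called 0 members, with 4 higher at an unadjusted p under 0.05, and limma-voom 0, with 7 higher and 1 lower, while DESeq2 called 1, Ran (adjusted p = 2.2e-07), as well as 2.19% of all tested genes. Without 1 library at a time, the members higher at an unadjusted p under 0.05 numbered 2 to 9. There were 2 without WT replicate 1 or Mcph1-/- replicate 2 or 3, 3 without Mcph1-/- replicate 1, and 9 without WT replicate 3. The share of all tested genes at an unadjusted p under 0.05 was counted for the main limma-trend fit only. The member counts of the other fits thus have no background beside them and are not read as a result about the members.

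By the mean of log2 values, 27 members had a higher mean and 16 a lower mean in Mcph1-/-. Their median log2 difference was 0.45. Over all tested genes the median was 0.08, and 53.8% were higher. The medians were 0.56 for the pore, 0.41 for importins and -0.64 for exportins. Without Mcph1-/- replicate 1 the median over members was 0.78. In 8 members every Mcph1-/- library lay above every WT library, and in 3 every one lay below (18.6% and 6.98%), against 7.4% and 6.8% of all tested genes. The first set is Ran, Ranbp1, Kpna2, Tnpo3, Nup107, Nup35, Nup54 and Nup50, and the second is Rangap1, Tnpo1 and Xpo4.

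**Figure D1:**
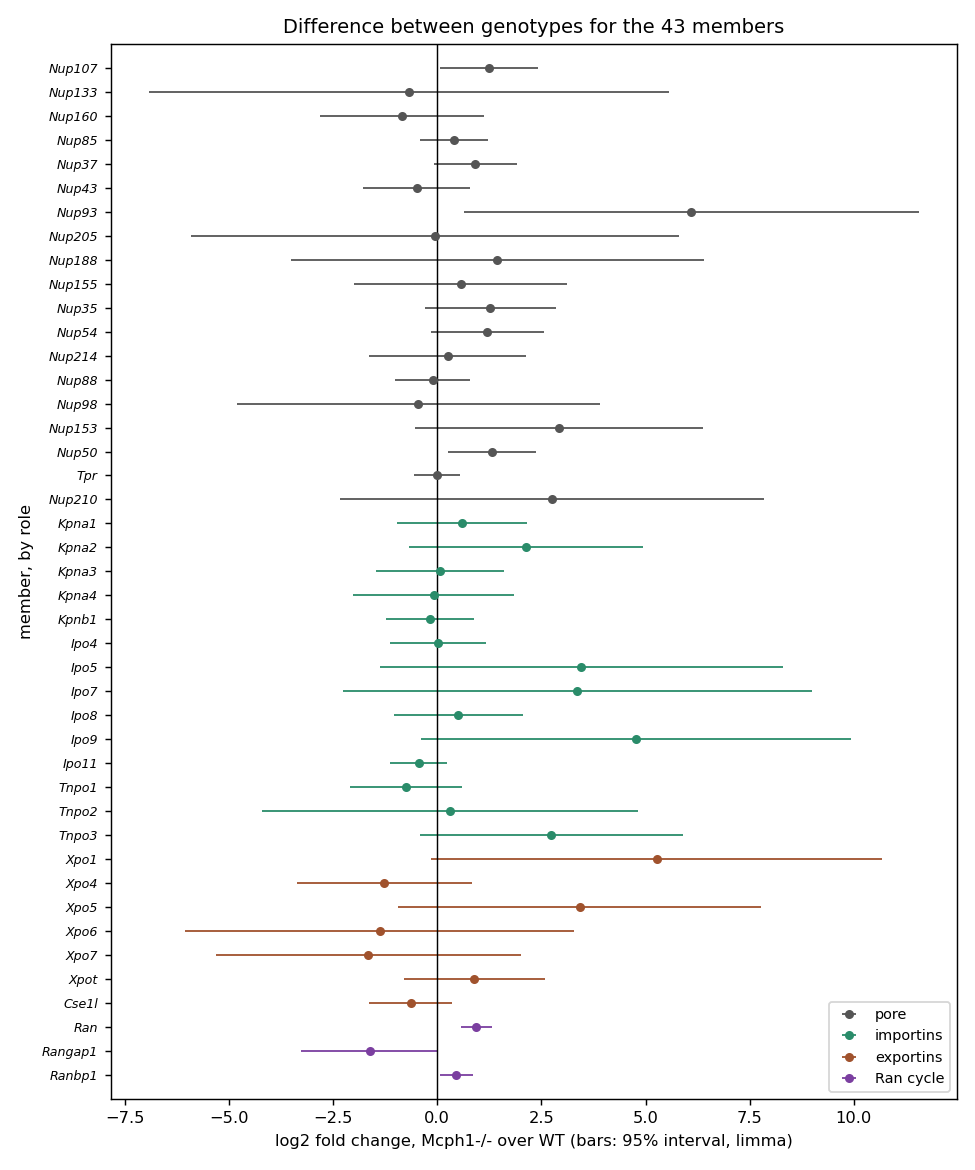
Log2 difference, or log2 fold change (Mcph1-/- over WT, horizontal axis) of each of the 43 members, ordered by role from the pore scaffold at the top to the Ran cycle at the bottom. Points are limma estimates, bars are 95% intervals, and colors mark the 4 classes. Ran has the narrowest interval that lies clear of 0, from 0.56 to 1.32, while the intervals of Nup93 and Xpo1, each with 2 libraries at 0 reads, are over 10 log2 units wide.

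Ran and Ranbp1 were the most abundant members per length and differed little between libraries of a genotype. Ran (ENSMUSG00000029430, chr5:129020069-129024323 in mm10) stood at 2740.4, 2577 and 2359 in WT and 4349, 5227 and 5174 in Mcph1-/-. The libraries did not overlap. Means with SD (n = 3) were 2559 ± 192 in WT and 4917 ± 492 in Mcph1-/-, and the log2 difference was 0.94 (SE 0.17, adjusted p = 0.320 by limma). Its 95% interval was 0.56 to 1.32. Ranbp1, the partner that helps Rangap1 strip Ran from receptors, stood at 5307, 6301 and 7201 in WT and 9089, 7298 and 9302 in Mcph1-/-, with a log2 difference of 0.45 (SE 0.17, adjusted p = 0.626 by limma). The lowest Mcph1-/- library was only just above the highest WT one. Rangap1, the GTPase-activating protein of Ran, lay the other way at 381, 581 and 394 in WT and 338, 68.9 and 125 in Mcph1-/-. Its log2 difference was -1.62 (SE 0.71, adjusted p = 0.651 by limma), and Mcph1-/- replicate 1 lay close to the WT libraries. Without that library it was -2.24.

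Reads of Ran may be shared with a copy. A processed pseudogene, Gm13461 (chr2:41987473-41988829), matches the Ran transcript at 97.3% identity over 662 bases, and more reads were assigned to it than to Ran in every library. It stood at 3359.6, 3495 and 3484 in WT and 6168, 7286 and 6525 in Mcph1-/-, a log2 difference of 0.95 (SE 0.15, adjusted p = 0.277 by limma). Added together, the pair stood at 6100.0, 6071 and 5843 in WT and 10518, 12513 and 11699 in Mcph1-/-, and the log2 difference was 0.94 (SE 0.13, adjusted p = 0.160 by limma). How reads that fit both genes were counted was not given in the sources used here, which leaves the level of Ran uncertain. The ratio between genotypes was nearly the same for each gene alone and for the sum.

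**Figure D2:**
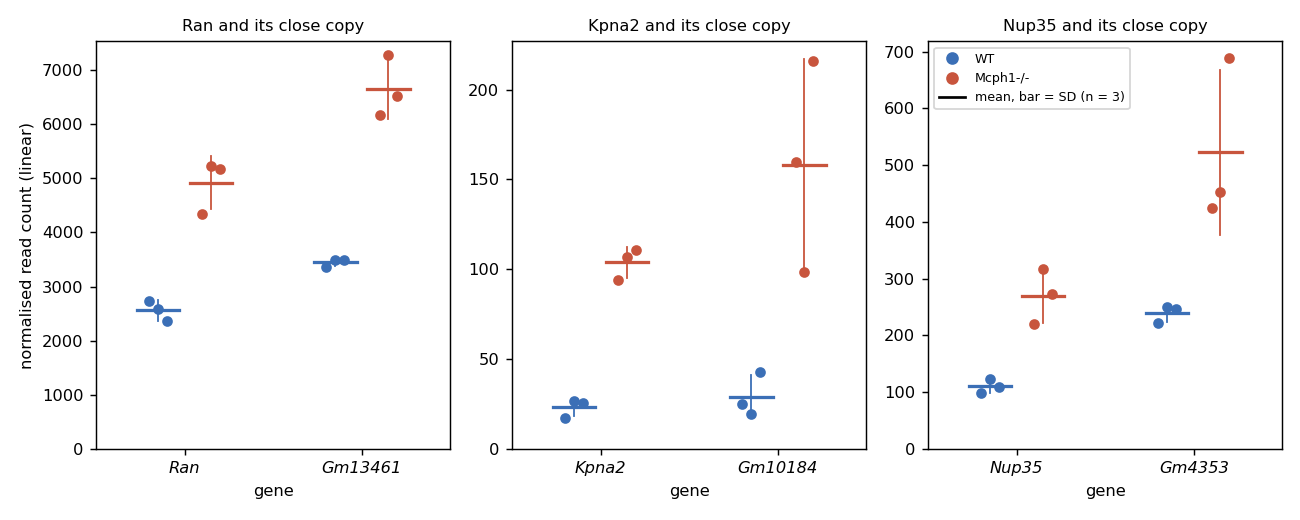
Normalised read count (vertical axis, linear) of Ran, Kpna2 and Nup35 and of the listed gene that matches each one's transcript most closely, by library. Points are libraries, horizontal bars means and vertical bars SD (n = 3). In all 6 genes the 3 Mcph1-/- libraries lie above the 3 WT libraries.

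Promoter windows of 7 of the 8 members that were higher without overlap (Nup35 had none in the table) are shown to let their sequence be compared. The windows come from RefSeq (GRCm38.p6), run from 250 bases before to 50 after the start site, and were found for 35 of the 43 members. Capitals mark exact matches, on either strand, to the core of the NRF1 site (GCGCA followed by TGCGC), the CCAAT box (CCAAT), the cell cycle genes homology region or CHR (TTTGAA), E2F sites (TTTGGCGC, TTTCCCGC or TTCCCGCC, of which the latter pair can overlap), the E-box (CACGTG) and the ETS site (CCGGAAGT).
Ran, chr5:129019906-129020205, plus strand: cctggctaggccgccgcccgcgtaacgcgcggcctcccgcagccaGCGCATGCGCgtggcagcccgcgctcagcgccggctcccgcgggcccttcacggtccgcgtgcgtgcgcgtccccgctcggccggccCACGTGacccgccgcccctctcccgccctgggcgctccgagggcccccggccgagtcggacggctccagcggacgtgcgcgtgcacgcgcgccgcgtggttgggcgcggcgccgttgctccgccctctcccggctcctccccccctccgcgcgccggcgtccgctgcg
Nup50, chr15:84923178-84923477, plus strand: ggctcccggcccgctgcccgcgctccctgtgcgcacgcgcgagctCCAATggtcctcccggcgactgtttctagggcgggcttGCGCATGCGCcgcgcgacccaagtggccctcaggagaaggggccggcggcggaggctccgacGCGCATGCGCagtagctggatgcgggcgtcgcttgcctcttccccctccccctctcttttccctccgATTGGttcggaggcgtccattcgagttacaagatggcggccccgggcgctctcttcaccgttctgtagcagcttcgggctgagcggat
Nup107, chr10:117792656-117792955, minus strand: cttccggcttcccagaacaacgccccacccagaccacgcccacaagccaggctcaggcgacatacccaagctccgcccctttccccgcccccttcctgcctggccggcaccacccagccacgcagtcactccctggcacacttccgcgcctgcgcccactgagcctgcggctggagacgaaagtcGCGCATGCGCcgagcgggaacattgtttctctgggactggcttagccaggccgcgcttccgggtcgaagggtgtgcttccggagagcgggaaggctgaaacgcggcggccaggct
Kpna2, chr11:106999476-106999775, minus strand: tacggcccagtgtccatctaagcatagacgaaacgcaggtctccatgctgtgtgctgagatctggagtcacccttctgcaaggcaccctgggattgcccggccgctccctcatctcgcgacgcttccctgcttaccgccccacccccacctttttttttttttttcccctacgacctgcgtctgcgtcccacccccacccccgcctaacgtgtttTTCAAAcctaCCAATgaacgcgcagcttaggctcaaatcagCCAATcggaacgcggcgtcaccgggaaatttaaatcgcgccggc
Ranbp1, chr16:18248645-18248944, minus strand: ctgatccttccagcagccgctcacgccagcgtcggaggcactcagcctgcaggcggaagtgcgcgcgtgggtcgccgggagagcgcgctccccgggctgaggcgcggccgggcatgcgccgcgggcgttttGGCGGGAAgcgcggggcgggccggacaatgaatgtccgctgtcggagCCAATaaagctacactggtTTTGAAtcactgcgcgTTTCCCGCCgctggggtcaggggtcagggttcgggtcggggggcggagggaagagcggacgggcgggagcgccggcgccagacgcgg
Nup54, chr5:92435150-92435449, minus strand: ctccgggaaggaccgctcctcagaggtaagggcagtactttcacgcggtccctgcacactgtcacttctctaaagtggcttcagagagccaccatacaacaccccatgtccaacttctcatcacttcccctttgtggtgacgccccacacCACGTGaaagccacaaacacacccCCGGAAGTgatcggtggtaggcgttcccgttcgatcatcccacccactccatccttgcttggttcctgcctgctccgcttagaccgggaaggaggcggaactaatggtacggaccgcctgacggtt
Tnpo3, chr6:29609800-29610099, minus strand: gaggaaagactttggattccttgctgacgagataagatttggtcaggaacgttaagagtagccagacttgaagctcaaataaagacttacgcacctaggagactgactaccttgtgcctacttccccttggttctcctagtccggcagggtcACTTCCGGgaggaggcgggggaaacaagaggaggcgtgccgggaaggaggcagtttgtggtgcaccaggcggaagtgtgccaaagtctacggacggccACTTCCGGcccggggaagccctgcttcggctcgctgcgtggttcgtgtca

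The NRF1 letters occurred in the windows of Ran, Nup50, Nup107 and Xpo5, that is 4 of 35 members (11.4%), against 2.62% of the 7832 listed genes with a window and 0.971% of all 32851 windows. Nup50 and Xpo5 held them at 2 places each. The CCAAT letters were found in 19 members (54.3%, against 42.9% of listed genes), and the TTTGAA letters in 9 (25.7%, against 14.4%). Both occurred in 6 members, Kpna2, Nup37, Nup98, Ranbp1, Tnpo2 and Tpr, and of the windows printed those of Ran, Nup107, Nup54 and Tnpo3 held neither. An E2F sequence occurred in 3 members, Ranbp1, Nup133 and Nup210 (8.57%, against 7.14% of listed genes). The E-box occurred in 8 (22.9%, against 12.2%) and the ETS letters in 4 (11.4%, against 10.4%). Among all 8 letter strings searched, these are descriptions of windows, and binding was not measured.

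Among import receptors, the importin alpha genes encode adaptors that bind nuclear localisation signals and hand the cargo to Kpnb1. Kpna2 (ENSMUSG00000018362, chr11:106988629-106999541) stood at 17.4, 26.8 and 25.3 in WT and 94.0, 107 and 111 in Mcph1-/-. Per kilobase of exon its WT mean was 8.06, the lowest of the 4 alpha genes, before Kpna1 at 21.8. The libraries did not overlap. Means with SD (n = 3) were 23.1 ± 5.07 in WT and 104 ± 8.74 in Mcph1-/-, a ratio of 4.48. The log2 difference was 2.14 (SE 1.22, adjusted p = 0.673 by limma). limma draws the spread of a gene towards that of genes at a similar level, which at this low level is wide, so the SE exceeds the spread of the 6 libraries of Kpna2.

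Kpna2 also has close copies. Gm10184, annotated as protein-coding (chr17:89908462-89910449), matches it at 99.9% over 1968 bases, and the pseudogene Gm10259, which has no values here, at 99.8% over 1590. Gm10184 stood at 24.9, 19.6 and 42.5 in WT and 159.6, 98.4 and 216 in Mcph1-/-, again without overlap. The sum of the pair was 42.3, 46.4 and 67.8 in WT and 254, 205 and 327 in Mcph1-/-, with a log2 difference of 2.31 (SE 0.88, adjusted p = 0.624 by limma). Reads that fit several copies can be lost or split, so the low level of Kpna2 is uncertain.

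The other alpha genes varied more between libraries than between genotypes. Kpna1 stood at 115, 241 and 198 in WT and 374, 156 and 325 in Mcph1-/-, Mcph1-/- replicate 2 lying within the WT range. Kpna4 stood at 298, 178 and 418 in WT and 75.7, 539.8 and 454 in Mcph1-/-, both extremes being in Mcph1-/-. Kpna3 ranged from 169 to 562. Log2 differences of Kpna1, Kpna4 and Kpna3 were 0.59 (SE 0.68), -0.08 (SE 0.84) and 0.07 (SE 0.67). For Kpna4 the sign is opposite to that of the means, 298 in WT and 356 in Mcph1-/-.

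Kpnb1, importin beta, the receptor that takes alpha-bound cargo through the pore, stood at 892, 549 and 467 in WT and 879, 349 and 513 in Mcph1-/-. The genotypes overlapped, and the log2 difference was -0.18 (SE 0.46, adjusted p = 0.934 by limma), with a 95% interval of -1.23 to 0.87. Tnpo3, which imports serine and arginine-rich splicing factors, stood at 251, 305 and 6.07 in WT and 508, 451 and 703 in Mcph1-/-. WT replicate 3 was nearly empty, and without it the log2 difference of Tnpo3 was 0.97 in place of 2.74 (SE 1.38, adjusted p = 0.662 by limma). Tnpo1, the receptor of proline-tyrosine signals as in hnRNP A1, stood at 261, 276 and 520.3 in WT and 149, 250.2 and 212 in Mcph1-/-. The closest libraries of Tnpo1 differed little, and its log2 difference was -0.75 (SE 0.58, adjusted p = 0.728 by limma). A pseudogene, Gm6493, matches Tnpo1 at 97.3% over 2656 bases and was read at 0 to 18.2. Added together, that pair gave a log2 difference of -0.66 (SE 0.56).

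Ipo11 stood at 2895, 1512 and 2005 in WT and 1188, 1536 and 1897 in Mcph1-/-, per kilobase the most abundant of the beta-family receptors in both genotypes, with a log2 difference of -0.45 (SE 0.30, adjusted p = 0.706 by limma). Ipo9, an importer of histones and ribosomal proteins, stood at 0, 197 and 0 in WT and 249, 116 and 136 in Mcph1-/-. A single WT library thus held all its WT reads. Its log2 difference of 4.77 (SE 2.25, adjusted p = 0.662 by limma) rests on the 2 libraries at 0. It was 2.20 with a pseudocount of 16, while the ratio of means was 2.54. Ipo5 and Ipo7 each had 1 WT library at 0 and Tnpo2 one at 2.02, while Ipo4 and Ipo8 were read at 106 or more in all 6. Their log2 differences were 3.46 for Ipo5, 3.36 for Ipo7, 0.30 for Tnpo2, 0.51 for Ipo8 and 0.02 for Ipo4, none past the threshold. For Tnpo2 the sign is opposite to that of the means, 198 in WT and 102 in Mcph1-/-.

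**Figure D3:**
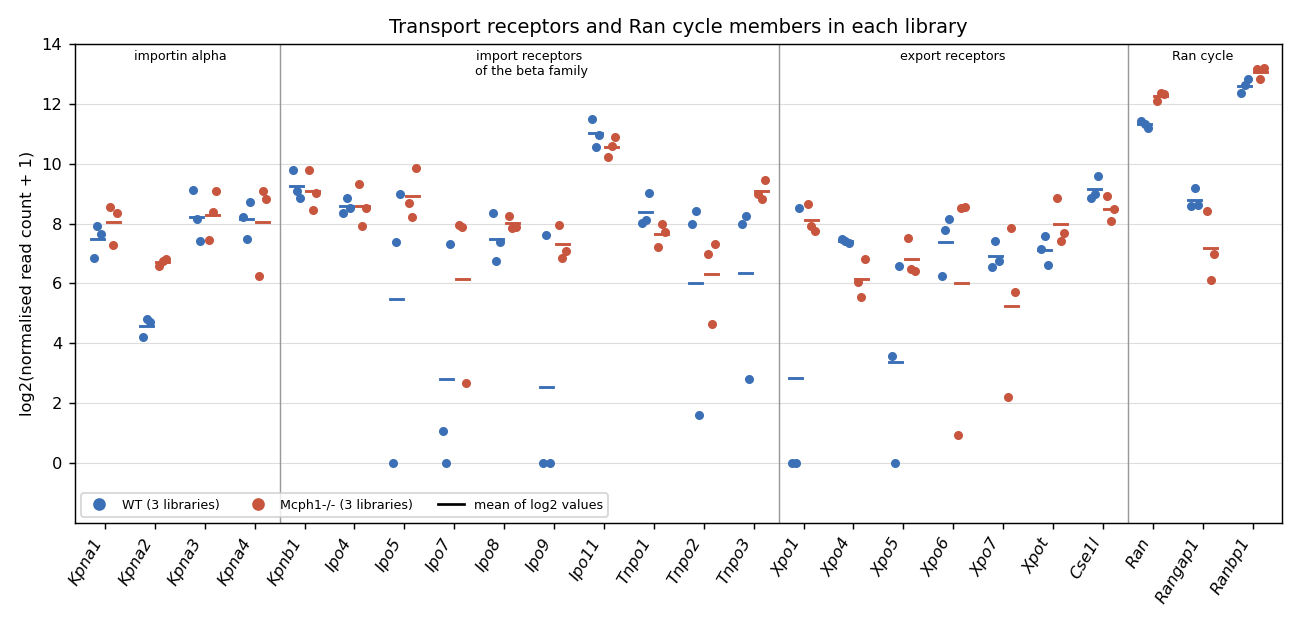
Log2(normalised read count + 1) of the importin, exportin and Ran cycle members in each library, on the vertical axis, by gene. Blue points are WT, red points Mcph1-/-, and bars the mean of the 3 log2 values. Ran, Ranbp1, Kpna2 and Tnpo3 lie higher in all Mcph1-/- libraries and Rangap1, Tnpo1 and Xpo4 lower, while Xpo1, Ipo9, Ipo7, Ipo5 and Xpo5 have WT points at 0.

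Export receptors gave no common direction, with 3 higher and 4 lower. Xpo1, the receptor of leucine-rich export signals (ENSMUSG00000020290, chr11:23256041-23298249), stood at 0, 0 and 367 in WT and 399, 240.4 and 215 in Mcph1-/-. WT replicate 3 lay within the Mcph1-/- range and the other two WT libraries were at 0. The log2 difference of 5.26 (SE 2.36, adjusted p = 0.655 by limma) became 2.66 with a pseudocount of 16, and the ratio of means was 2.32. Xpo5, which exports precursor miRNAs, stood at 10.8, 0 and 95.2 in WT and 182, 87.8 and 84.8 in Mcph1-/-, with a log2 difference of 3.42 (SE 1.89, adjusted p = 0.667 by limma).

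Xpo4, an exporter of Smad3 and eIF5A, was among the most even genes in WT, at 178, 170.0 and 164 in WT and 65.7, 45.9 and 112 in Mcph1-/-. The Mcph1-/- libraries all lay lower, and the log2 difference was -1.28 (SE 0.91, adjusted p = 0.722 by limma). The pseudogene Gm17873, which has no values here, matches Xpo4 at 99.1% over 576 bases, so the reads of Xpo4 are uncertain too. Cse1l, which returns importin alpha to the cytoplasm, stood at 458, 507 and 774 in WT and 481, 272 and 359 in Mcph1-/-, with Mcph1-/- replicate 1 inside the WT range. Its log2 difference was -0.64 (SE 0.43, adjusted p = 0.706 by limma). Xpo6, the exporter of actin, held a single read in Mcph1-/- replicate 1 and 74.8 to 373 in the other libraries. Xpo7 was lowest in the same library, at 3.65, and highest in Mcph1-/- replicate 2, at 229.7. Xpot, the exporter of tRNA, ranged from 96.2 to 466, its highest value being in Mcph1-/- replicate 1. Log2 differences were -1.39 (SE 2.03) for Xpo6, -1.66 (95% interval -5.33 to 2.01) for Xpo7 and 0.88 (SE 0.74) for Xpot. For Xpo6 the sign is opposite to that of the means, 192 in WT and 247 in Mcph1-/-.

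In the pore, 12 of 19 genes were higher and 7 lower. The Y complex, the outer scaffold that also binds kinetochores in mitosis, was split evenly, with 3 higher and 3 lower. Nup107 (ENSMUSG00000052798, chr10:117750621-117792705) stood at 262, 171 and 435 in WT and 438, 909 and 666 in Mcph1-/-, just without overlap, and its log2 difference was 1.25 (SE 0.51, adjusted p = 0.642 by limma). Nup37 stood at 279.8, 576 and 507 in WT and 546, 1084 and 919.6 in Mcph1-/-, where the lowest Mcph1-/- library lay inside the WT range, with a log2 difference of 0.91 (SE 0.43, adjusted p = 0.662 by limma). Of the 3 lower members, Nup160 stood at 203, 128 and 309.8 in WT and 206, 115 and 57.1 in Mcph1-/-, a log2 difference of -0.85 (SE 0.86). Nup43 stood at 748, 350.3 and 661 in WT and 213, 386 and 746 in Mcph1-/-, a log2 difference of -0.50 (SE 0.56). Both overlapped between genotypes. The third, Nup133, was at 0 in replicate 3 of both genotypes. Nup85 ranged from 590.2 to 1455, with a log2 difference of 0.39 (SE 0.36).

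Among the inner ring genes, which anchor the channel to the membrane, only Nup35 did not overlap between genotypes. Nup35 (ENSMUSG00000026999, chr2:80617236-80658906) was even within genotypes, at 98.7, 124 and 109 in WT and 219.8, 317 and 273 in Mcph1-/-, a ratio of means of 2.44 and a log2 difference of 1.27 (SE 0.68, adjusted p = 0.666 by limma). Its copy Gm4353, protein-coding by annotation, matches it at 99.6% over 1547 bases and stood at 221, 249 and 246 in WT and 425, 453 and 688 in Mcph1-/-. Summed, the pair gave a log2 difference of 1.16 (SE 0.35, adjusted p = 0.614 by limma). Which of the pair the reads came from is uncertain.

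Nup93, the linker of the inner ring, stood at 0, 0 and 525 in WT and 596, 605 and 468 in Mcph1-/-. WT replicate 3 was as high as the Mcph1-/- libraries and the other two were at 0. Its log2 difference of 6.10 (SE 2.38, adjusted p = 0.626 by limma) was the largest of all members and was 3.46 with a pseudocount of 16 and 1.71 by edgeR. Nup188 was at 0 in WT replicate 1. For Nup188 the sign of the log2 difference (1.44, SE 2.16) is opposite to that of the means, 148 in WT and 104 in Mcph1-/-. Nup155 overlapped (log2 difference 0.56, SE 1.11). Nup205 stood at 311, 0 and 235 in WT and 3.65, 217 and 64.3 in Mcph1-/-, with a log2 difference of -0.05 (SE 2.55) whose sign turned without WT replicate 1 or 3 or Mcph1-/- replicate 1.

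**Figure D4:**
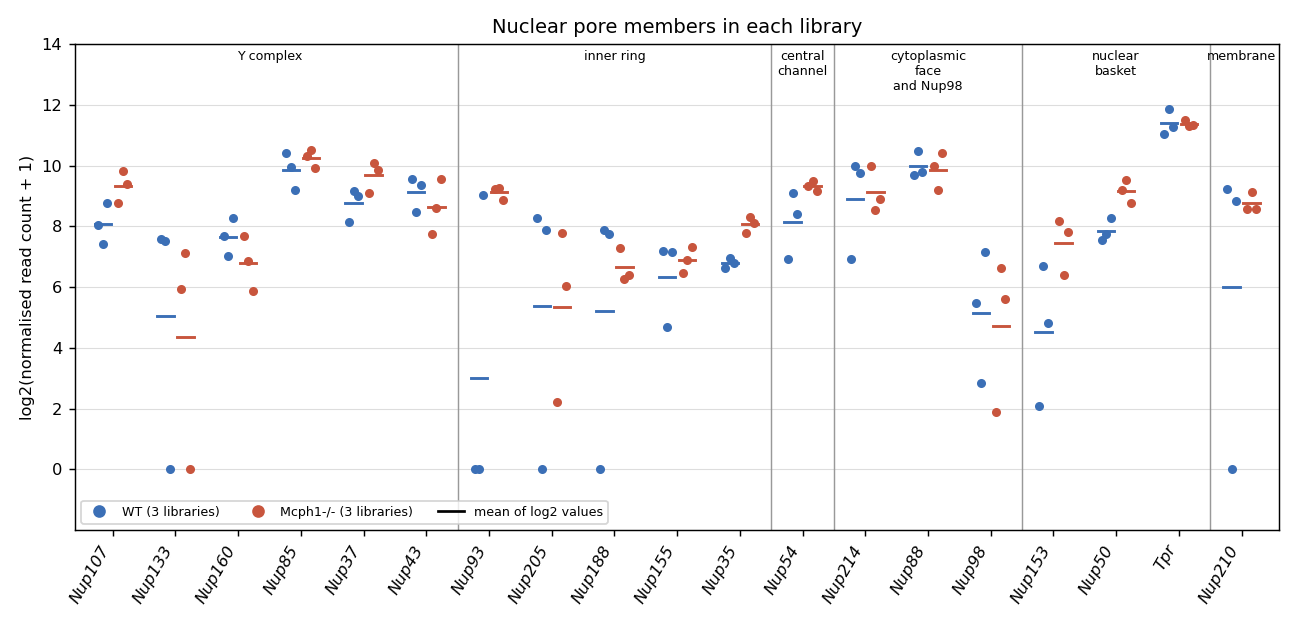
Log2(normalised read count + 1) of the 19 pore members in each library, on the vertical axis, by gene and pore substructure. Blue points are WT, red points Mcph1-/-, and bars the mean of the 3 log2 values. Nup107, Nup35, Nup54 and Nup50 do not overlap between genotypes, Tpr is level, and Nup93, Nup188, Nup205, Nup210 and Nup133 have points at 0.

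Nup54, a channel protein with phenylalanine-glycine repeats, stood at 119, 546 and 337 in WT and 645, 726 and 577 in Mcph1-/-, with WT replicate 1 far below the rest. The log2 difference was 1.20 (SE 0.59, adjusted p = 0.662 by limma), and 0.59 without that library. A pseudogene, Gm15790, matches Nup54 at 98.0% over 1254 bases, so its reads are uncertain too. In the nuclear basket, Nup50 (ENSMUSG00000016619, chr15:84923411-84942963), a cofactor of importin alpha, stood at 188, 211 and 305 in WT and 587, 732 and 437 in Mcph1-/-. The 3 Mcph1-/- values were all higher, the ratio of means was 2.49 and the log2 difference 1.31 (SE 0.46, adjusted p = 0.626 by limma).

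Tpr, the coiled-coil protein that builds the basket, stood at 2096, 3694 and 2481 in WT and 2911, 2508 and 2597 in Mcph1-/-. Its log2 difference, the closest to 0 of all members, was -0.01, or 0.024 with TMM scaling, and the 95% interval was -0.55 to 0.54. Nup153, which tethers the basket to the ring, stood at 3.25, 102 and 27.3 in WT and 287, 82.9 and 223 in Mcph1-/-, with a log2 difference of 2.92 (SE 1.51, adjusted p = 0.662 by limma). One WT library of Nup153 lay within the Mcph1-/- range. Thus Nup50 and Nup153 had higher means, Tpr did not, and none passed.

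On the cytoplasmic face, Nup214 stood at 120.4, 1002 and 859 in WT and 1014, 366 and 473 in Mcph1-/- and its partner Nup88 at 816, 1419 and 877 in WT and 1022, 581 and 1347 in Mcph1-/-. The genotypes overlapped in both, with log2 differences of 0.25 (SE 0.82) and -0.11 (SE 0.39). For Nup214 the sign is opposite to that of the means, 661 in WT and 618 in Mcph1-/-. Nup98, which lies on both faces of the pore and also acts on chromatin, was low and uneven at 43.4, 6.18 and 143 in WT and 2.74, 96.8 and 47.3 in Mcph1-/-, with a log2 difference of -0.46 (SE 1.90, adjusted p = 0.962 by limma). Nup210, a membrane glycoprotein of the pore, stood at 595, 0 and 453 in WT and 379, 562 and 382 in Mcph1-/-. WT replicate 2 alone was at 0, and without it the log2 difference turned from 2.75 to -0.26.

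Libraries at 0 reads set many of these values. Of 129 values per genotype, 13 were 0 in WT and 1 in Mcph1-/-, or 10.1% and 0.775%, against 7.31% and 3.87% over all tested genes. By library, 5, 6 and 2 members were at 0 in WT and 0, 0 and 1 in Mcph1-/-, whose libraries also held more reads on listed genes. The part of depth in this difference was not tested. The table lists only genes with reads in at least 4 libraries, so a transport gene read in 1 genotype alone could not be listed. Exons of 16 members, Ranbp1, Rangap1, Nup35, Tnpo3 and Xpo4 among them, overlap another annotated gene, and their reads are uncertain where no strand was used. Among the 33 members read in all 6 libraries, 19 were higher, and the median log2 difference was 0.25, against 0.02 for all tested genes read in all 6.

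The median SD of log2 values over members was 0.636 in WT and 0.615 in Mcph1-/-, against 0.85 and 0.611 over all tested genes. In WT the SD ran from 0.0583 for Xpo4 and 0.109 for Ran to 5.21 for Nup210 and 5.22 for Nup93. In Mcph1-/- it ran from 0.112 for Tpr to 4.39 for Xpo6.

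**Figure D5:**
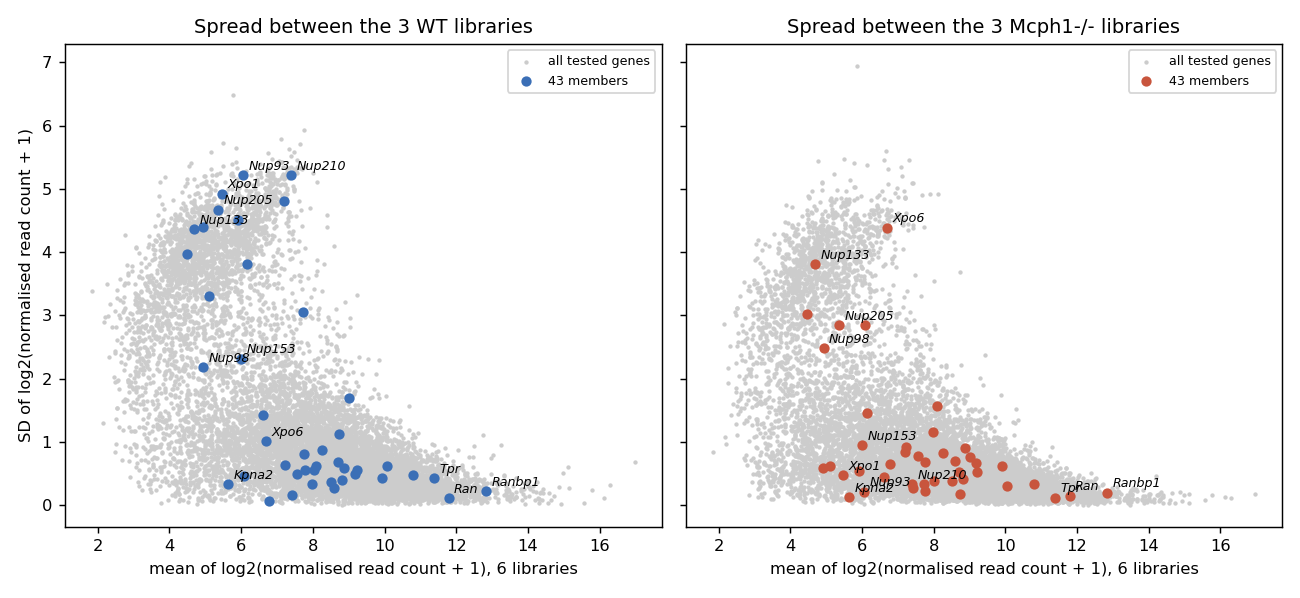
SD of log2(normalised read count + 1) between the 3 libraries of a genotype (vertical axis) against the mean over 6 libraries (horizontal axis), for WT on the left and Mcph1-/- on the right. Colored points are the 43 members and grey points all tested genes. Ran and Ranbp1 lie at the right with a small SD in both genotypes, and Nup93, Nup210 and Xpo1 lie high in WT.

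Per kilobase of annotated exon, the scale on which genes can be compared, Ranbp1 and Ran led both genotypes. Their mean levels in WT were 3763 and 967 normalised reads per kilobase, before Nup85 (290.0), Ipo11 (271), Tpr (263) and Nup43 (229). The last 4 overlapped within their spread. The lowest WT levels were those of Ipo7, Nup98 and Xpo5, at 4.81, 5.09 and 5.15. In Mcph1-/- the order began with Ranbp1 (5140.1), Ran (1858) and Nup85 (365), followed by Nup37 (255) and Tpr (255).

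Pathway genes outside the symbol rule gave no call either. Of 20 pore and lamina partners, 17 were higher and 3 lower, the median log2 difference being 1.18 and 0 past the threshold. At an unadjusted p under 0.05 there were 0 as well, and 6 of the 20 had a library at 0. Banf1, which bridges chromatin and the envelope, stood at 5286, 5326 and 3238 in WT and 6355, 6017 and 5919 in Mcph1-/- and did not overlap, nor did the lamin B receptor Lbr, at 180.0, 406 and 452 in WT and 546, 724 and 607 in Mcph1-/-. The RNA export factor Rae1 was the lower partner with the smallest p, at 1951, 2086 and 1734 in WT and 855, 1089 and 1805 in Mcph1-/-, a log2 difference of -0.69 (SE 0.30, adjusted p = 0.651 by limma).

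Of 10 partners of Ran and the receptors, 5 were higher and 5 lower, with a median of 0.14 and 0 past the threshold. Rcc1, the exchange factor that loads Ran with GTP, was at 0 in WT replicate 2 and Mcph1-/- replicate 3 and at 130.4 to 265 in the others. Nutf2, which imports Ran itself, stood at 371, 214 and 9.11 in WT and 33.8, 133 and 28.6 in Mcph1-/-. Snupn, the adaptor for small nuclear ribonucleoproteins, was the 1 partner with an unadjusted p under 0.05, at 141, 340.0 and 255 in WT and 959, 695 and 448 in Mcph1-/-, a log2 difference of 1.53 (SE 0.52, adjusted p = 0.626 by limma).

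Of 16 messenger RNA export genes, 15 were tested, 12 higher and 3 lower, with a median of 0.43 and 0 past the threshold. Thoc1 of the THO complex and Eny2 of the TREX-2 complex had unadjusted p-values under 0.05, with log2 differences of 0.90 (SE 0.30, adjusted p = 0.626 by limma) and 0.84 (SE 0.29, adjusted p = 0.626 by limma). The exporter Nxf1 had one of -0.23 (SE 0.32).

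Markers of other cells and states differed between the genotypes, and their part in the values above was not tested. The 4 genes past the threshold over all genes were the neutrophil genes S100a8, S100a9 and Ngp, lower in Mcph1-/-, and the erythroid gene Car1, higher. Summed over 19 genes of dividing cells, the normalised read count was 6591 to 8809 in WT and 16338 to 17812 in Mcph1-/-, and 18 of the 19 were higher. The 11 erythroid genes with values, of 12, summed to 4633 to 22251 in WT and 31378 to 39523 in Mcph1-/-, and 7 were higher. Car1 carried most of that sum. Without it the sums overlapped, at 3943, 2656 and 17684 in WT and 9172, 7662 and 7677 in Mcph1-/-. Klf1, Gata1 and Blvrb also lay higher in every Mcph1-/- library. Thus 4 erythroid genes were higher without overlap and 3 lower. Klf1 stood at 683, 200 and 1017 in WT and 2997, 2883 and 2394 in Mcph1-/-. The globin genes Hba-a1, Hba-a2 and Hbb-bs lay lower in every Mcph1-/- library, Hba-a1 at 581, 251 and 8516 in WT and 185, 55.0 and 101 in Mcph1-/-, though none of these passed the threshold. Another globin gene, Hbb-bt, overlapped, at 42.3, 13.4 and 256 in WT and 43.8, 54.1 and 86.6 in Mcph1-/-. WT replicate 3 was the highest WT library for each of these globin genes. The 7 neutrophil and granule genes with values, of 15, summed to 58564 to 67847 in WT and 3287 to 18724 in Mcph1-/-, and 6 were lower by log2 difference. Only S100a8, S100a9, Ngp and Camp were lower without overlap. The granule genes Elane, Mpo and Prtn3 overlapped. Elane, counted as lower, had means of 1251 in WT and 2700 in Mcph1-/-, with 8095 in Mcph1-/- replicate 3. Mpo had a log2 difference of 1.45 (SE 3.61). Sums over 4 monocyte genes, of 5, were 7892 to 12884 in WT and 4640.5 to 5054 in Mcph1-/-, with 3 lower. Without Lyz2 the monocyte sums overlapped, at 291 to 643 in WT and 197 to 624 in Mcph1-/-.

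The 7 megakaryocyte genes summed to 6306 to 8727 in WT and 4012 to 4845 in Mcph1-/-, 5 of them lower and 1 without overlap, and the 12 stem cell genes to 24632 to 26904 in WT and 18518 to 20927 in Mcph1-/-, 8 of them lower. Of B cell genes, 3 of 6 had values, summing to 878 to 1829 in WT and 374 to 2472 in Mcph1-/-. Of 5 T cell genes only Lck had values, at 0 in WT replicate 2 and Mcph1-/- replicate 1, and Cd3e, Cd3d and Cd3g had none. Members whose libraries did not overlap were thus measured beside dividing-cell, neutrophil and stem cell sums that did not overlap either. The genes left out of these sums were chosen after the values were seen.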

How the data were processed

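Each of the 6 libraries came from 200 sorted cells by the Smart-seq2 method, with paired-end Illumina sequencing, per the labels' protocols. HISAT2, featureCounts, DESeq2, Trim Galore 0.6.6 and the mm10 build stand in the submitters' processing notes, without their roles. Annotation release, strand setting and treatment of multi-mapped reads were not given in the sources used here. For each gene and library, the authors deposited a normalised signal, the read count divided by the library's size factor. All values were whole multiples of 1 read (tolerance 0.001 reads), so reads were recovered. The main test was limma-trend (3.58.1) on log2(value + 1), genotype as the only term, over the 10846 genes with a mean of at least 10. All 43 members passed that filter. Genes with a library at 0, or far below the others, can have a log2 fold change above, or opposite to, the ratio of means.

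Alternatives were edgeR 4.0.16, DESeq2 1.42.0 and limma-voom on recovered reads, TMM scaling, other pseudocounts and filters, a replicate block and leaving out each library. The gene tests were tested on simulated counts. Members, lists, promoter motifs and named genes were chosen with earlier results of these data known. By rule, genes were named with all values if central to a role, among the 2 smallest p-values per direction in a role, or without overlap; others are given by range. Copies were sought with BLAST 2.17.0 among GENCODE vM21 transcripts (97% identity over 150 bases), a step added after seeing the data; 7 members had one. Exons of 16 members overlap another gene, among them Nup35, Ranbp1, Rangap1, Tnpo3, Xpo4, Kpnb1 and Tpr, so reads there cannot be assigned without strand. Positions are from GENCODE vM21 on mm10, which held 96.2% of the listed gene identifiers.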

Additional observations from a re-analysis of the deposited data

How the results depend on the processing

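Over all genes, 4 passed by limma-trend, 1 by limma-voom, 2 by edgeR, 238 by DESeq2, and 1 to 4 when 1 library was left out. The number of members past the threshold was 0 in each alternative except DESeq2, with 1 (Ran). No pairing by replicate number was seen in the values (correlation of same-numbered deviations -0.03 to 0.02). This does not show that same-numbered libraries were handled apart. With the replicate block 3 genes and 0 members passed. The median over members ranged from 0.33 by DESeq2 to 0.78 without Mcph1-/- replicate 1. Of the 30 members picked by the naming rule, 22 kept their direction in every alternative, including close copies added to their member, which was added after seeing the data. The rule favors such members, because it picks small p-values and members without overlap. A member without overlap cannot change sign when 1 library is left out. The count of 22 thus says little about the set. The direction of the 13 members that the rule did not pick was not compared across alternatives. With TMM scaling and with limma-voom the log2 fold change of Tpr was 0.024 and 0.016, and with limma-voom that of Nup205 was 0.31. By edgeR and DESeq2 it was 0.29 and 0.26 for Kpna4 and -0.068 and -0.10 for Nup214. Leaving out 1 library gave -0.18 to 0.23 for Tpr, -2.75 to 1.51 for Nup205, -0.60 to 0.81 for Kpna4, -0.73 to 0.80 for Nup214, -0.53 to 0.14 for Kpnb1, -0.38 to 0.22 for Nup88, -1.62 to 0.94 for Nup98 and -0.26 to 4.35 for Nup210. Signs turned without WT replicate 1 for Kpnb1, Nup205 and Nup214, WT replicate 2 for Nup210, Nup88 and Tpr, WT replicate 3 for Kpna4, Nup205 and Nup98, Mcph1-/- replicate 1 for Kpna4, Nup205, Nup214 and Nup98, Mcph1-/- replicate 2 for Kpnb1, Nup88 and Tpr, and Mcph1-/- replicate 3 for Tpr. The cause was not tested. Of the members, 10 had a library at 0 reads, where a level under 3 reads' worth was not detectable.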

Other observations

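Of a library's reads on listed genes, the share that fell on members was 0.264, 0.289 and 0.297% for WT and 0.364, 0.349 and 0.391% for Mcph1-/-. Ran and Ranbp1 alone held 0.0916, 0.102 and 0.109% for WT and 0.156, 0.146 and 0.171% for Mcph1-/-. Within a library, the normalised read count of Ran divided by that of Rangap1 was 7.20, 4.43 and 5.99 in WT and 12.9, 75.9 and 41.4 in Mcph1-/-. That of Ran divided by Ranbp1 was 0.516, 0.409 and 0.328 in WT and 0.479, 0.716 and 0.556 in Mcph1-/-, with overlap. These ratios were chosen after the values were seen and were not tested.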
